A study of Drosophila melanogaster with 6 samples.

Results

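Odorant-binding proteins are the products of the Obp gene family of *Drosophila melanogaster*. The members described here are all genes with a uniquely named probe set whose symbol is Obp followed by a digit, 47 of the 11982 genes measured on the arrays. They were chosen by symbol, and where a gene had several probe sets the one of highest mean level stood for it. That choice used measured levels, but it mattered for only 3 genes, Obp19a, Obp19c and Obp59a, whose probe sets all read 2.2 on every array. The family was singled out with earlier results of these arrays known.

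Total RNA of embryos collected at 6 to 8 h was hybridised to Affymetrix arrays (Drosophila Genome 2.0), 3 from embryos of the Insensitive allele insv[23B] and 3 from w[1118] embryos as wild type. Flies and embryos of both genotypes were kept at 25 °C. The labels give neither the rest of the mutant's genetic background nor the number of embryos. Insensitive is a nuclear BEN-domain protein that represses transcription in neural precursors, and the comparison asks which transcripts differ when it is mutated. In whole embryos, fewer cells of a type and less RNA per cell cannot be told apart. The age is given only as 6 to 8 h, and whether mutant and wild-type embryos matched in developmental stage was not tested.

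Insect odorant-binding proteins are small secreted proteins with conserved cysteines that form disulfide bridges around a pocket for hydrophobic ligands. The best known are released by support cells into the fluid of olfactory and taste hairs, where they surround the receptor neurons. Others are made outside sense organs, for instance in glia, in fat body or in the male reproductive tract. The number in a name gives the region of the gene on the polytene chromosome map, so genes that share a number lie in the same region.

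The authors computed log2 levels with GCRMA, a background model that places transcripts without signal at a floor of 2.2. The highest value on any array was 15.1. A gene is called detected in a genotype here when it read 4 or more on all 3 arrays. A wild-type array had 7821 to 7883 probe sets at 4 or more and a mutant array 8295 to 8312, and arrays of 1 genotype correlated at 0.996 to 0.998 across probe sets. The insv probe set read 10.9 on each wild-type array and 4, 3.6 and 4.2 on the mutant arrays. The level of the gene thus matched the genotype labels, although the part of the gene its probes cover is not known here. Controls added from Bacillus also differed: in each of their 23 probe sets every mutant array was below every wild-type array, with a median difference of -1.43 on the log2 scale. The genotypes and the handling of their arrays cannot be told apart, and the effect of a scale set by these spike-ins is given beside the results. The labels do not say whether the replicates were separate collections, so the p-values rest on the spread among these samples alone, possibly a technical one.

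Embryonic markers were detected and adult ones were not. All 11 measured patterning genes, among them *engrailed* (en), *Distal-less* (Dll) and *Sex combs reduced* (Scr), were detected in both genotypes. None of the 5 measured photoreceptor genes, the 10 male accessory gland genes or the 14 chorion, vitelline membrane and yolk genes was detected in either genotype.

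Most of the family gave no signal above the floor. Of the 47 genes, 32 (68.1%) read exactly 2.2 on all 6 arrays and 2 more, Obp58c and Obp99d, read 2.3 on all 6. By comparison 28.7% of all genes lay at 2.2 on every array. Detected members numbered 5 of 47 (10.6%) in wild type and 8 (17.0%) in the mutant, where 53.4% and 57.1% of all genes were detected. Another member, Obp56h, reached 4 on 1 mutant array. A value at the floor means that no signal was separated from background and does not show that the RNA was absent.

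The members at the floor included several of the best-known proteins of the family. Obp83b, which is present in the pheromone-sensing hairs of the adult antenna, Obp69a, which is tied to social responses in adult flies, and Obp59a, which acts in sensing humidity, all read 2.2 throughout. Obp57e, a taste gene tied to host choice in *Drosophila sechellia*, read 2.2 as well. So did Obp8a, Obp22a, Obp51a, Obp56f, Obp56g and Obp56i, which are known from seminal fluid. The other genes at 2.2 were Obp19a, Obp19b, Obp19c, Obp19d, Obp46a, Obp47a, Obp47b, Obp50a, Obp50d, Obp50e, Obp56c, Obp56e, Obp57a, Obp57b, Obp57c, Obp58b, Obp58d, Obp73a, Obp83ef, Obp84a, Obp85a and Obp93a. The gene lush encodes another odorant-binding protein, needed to sense the male pheromone, under a name outside the naming rule, and it also read 2.2 on all arrays.

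**Figure D1:**
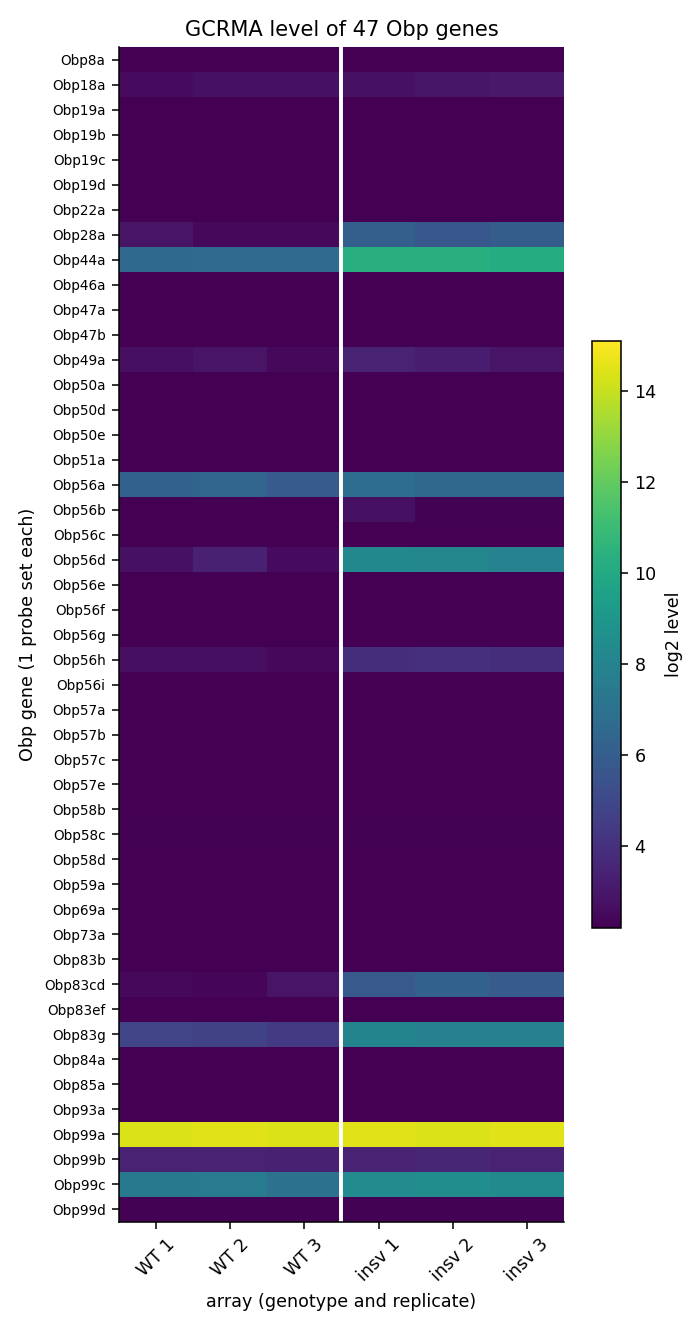
Log2 level of the 47 Obp genes (rows, in order of name) on the 3 wild-type (WT) and 3 insv mutant arrays (columns); colour runs from the floor of 2.2 to 15.1, the highest value on the arrays. Obp99a is bright on all 6 arrays, Obp28a, Obp44a, Obp56d, Obp83cd and Obp83g brighten in the mutant, and 34 rows lie at 2.3 or lower throughout.

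Between the floor and the detection level lay 4 genes. Obp99b, known for its sex-specific expression in the fat body of the adult head, read 3.5, 3.5 and 3.4 in wild type and 3.5, 3.6 and 3.5 in the mutant, so the genotypes overlapped. Obp49a, which acts in adult taste hairs where bitter compounds suppress the response to sugar, read 2.7, 2.9 and 2.5 in wild type and 3.5, 3.2 and 2.9 in the mutant, again with overlap. Obp18a ranged from 2.6 to 3.1 over the 6 arrays. These values are too near the floor to separate expression from background, and the genes were not tested. Obp56b was at 2.2 on all wild-type arrays and read 2.8, 2.3 and 2.3 in the mutant, so its signal came mainly from 1 array.

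Obp99a gave nearly the same level in both genotypes on the deposited scale. It read 14.4, 14.5 and 14.4 in wild type and 14.5, 14.4 and 14.5 in the mutant, near the upper end of the array scale. The genotypes overlapped, with a log2 fold change of 0.03 ± 0.05 (SE, n = 3 each; limma adjusted p = 0.55). Whether a level so near the highest value of 15.1 could have shown a rise was not tested. On the spike-in scale, which moves the median of all tested probe sets to 1.29, the same values differ by 1.42.

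Obp44a, which is made by glia of the larval central nervous system and binds fatty acids, was detected in wild type and far higher in the mutant. It read 6.6, 6.7 and 6.7 in wild type against 10.3, 10.3 and 10.2 in the mutant. The gap between the genotypes was many times the spread within either, which was at most 0.1. The log2 fold change was 3.60 ± 0.05 (SE, n = 3 each; limma adjusted p = 7.44e-07), a 12.1-fold rise, and 151 of the 6932 tested genes had a larger one.

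Obp83g and Obp83cd lie on either side of Obp83ef on arm 3R. Obp83g read 4.9, 4.7 and 4.4 in wild type and 8, 7.8 and 7.8 in the mutant. It therefore crossed from just over the detection level to a clear signal on every mutant array, a log2 fold change of 3.20 ± 0.14 (SE, n = 3 each; limma adjusted p = 3.05e-05). Obp83cd, 1 of the family's double-domain proteins, read 2.5, 2.4 and 2.9 in wild type, near the floor, and 5.8, 6.2 and 5.9 in the mutant. Its log2 fold change was 3.37 ± 0.17 (limma adjusted p = 5.22e-05), and a wild-type level this near the floor can understate the difference. Testing required 4 or more on at least 3 arrays, which Obp83cd met only through its mutant arrays, so it had to differ. Obp83ef, the gene between them and also a double-domain protein, stayed at 2.2 on all 6 arrays.

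Obp56d differed most within the family. It read 2.8, 3.4 and 2.6 in wild type and 8.2, 8.1 and 7.9 in the mutant. All wild-type arrays were under the detection level and all mutant arrays far above it. The log2 fold change was 5.13 ± 0.23 (SE, n = 3 each; limma adjusted p = 2.96e-05). Here too the wild-type level lay near the floor, and the value can understate the difference. Like Obp83cd, Obp56d met the condition for testing only through its mutant arrays and had to differ.

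Obp28a, an abundant protein of the adult antenna that takes part in responses to floral odours, showed the same order. It read 2.9, 2.5 and 2.5 in wild type and 6.1, 5.7 and 6 in the mutant, with a log2 fold change of 3.30 ± 0.16 (SE, n = 3 each; limma adjusted p = 4.21e-05). The genotypes lay on opposite sides of the detection level. As with Obp83cd and Obp56d, the wild-type level lay near the floor, so the value can understate the difference. Like these genes, Obp28a met the condition for testing only through its mutant arrays and had to differ.

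Obp99c rose less. It read 7.4, 7.5 and 7 in wild type and 8.4, 8.5 and 8.3 in the mutant, without overlap. The log2 fold change was 1.10 ± 0.15 (SE, n = 3 each; limma adjusted p = 0.00181). The call did not hold against a required change of more than 2-fold (limma treat, adjusted p = 1).

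Obp56a did not pass the test. It read 6.2, 6.4 and 5.9 in wild type and 6.8, 6.5 and 6.5 in the mutant, so the lowest mutant array lay just above the highest wild-type array. The log2 fold change was 0.43 ± 0.16 (SE, n = 3 each; limma adjusted p = 0.0564). It was 0.16 (adjusted p = 0.359) after quantile normalization and 0.53 (adjusted p = 0.0312) after centring arrays on their medians, and without wild-type replicate 2 it was 0.55 (adjusted p = 0.042). Over 17 alternatives, leaving out the spike-in scale and the required 2-fold change, its limma adjusted p ran from 0.0186 to 0.359.

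Obp56h, which affects male mating behaviour and cuticular hydrocarbons in adults, had too few arrays at 4 to be tested. It read 2.7, 2.7 and 2.5 in wild type and 3.9, 4 and 3.9 in the mutant, without overlap. The mutant values thus sat at the detection level, 1.30 above wild type on the log2 scale. When all probe sets were tested without the filter on low values, it passed (limma adjusted p = 0.000626). Of all 18769 probe sets 11.3% were called higher without that filter, and the wild-type level of Obp56h lay near the floor.

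**Figure D2:**
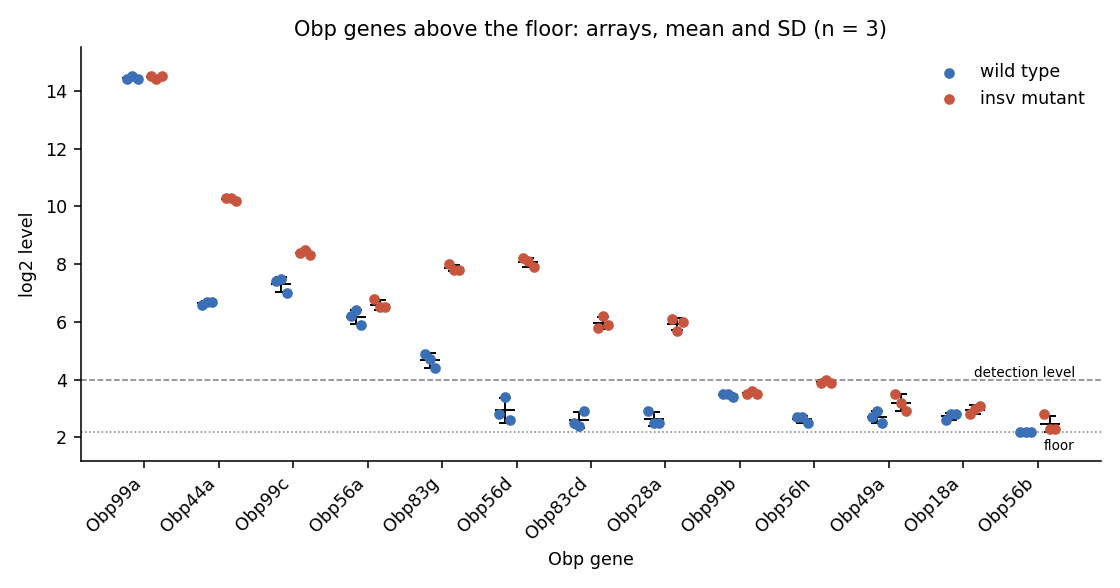
Log2 level of the 13 Obp genes above the floor on each array, wild type in blue and insv mutant in red, with mean and SD in black (n = 3), ordered by the mean over all arrays; the dashed line is the detection level of 4 and the dotted line the floor of 2.2. Obp99a overlaps between genotypes at 14.4 to 14.5, and Obp56d shows the widest gap, from 2.93 ± 0.42 to 8.07 ± 0.15.

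The count of members called has to be read against the whole array. Of the 8 tested members, 6 were called higher and 0 lower in the mutant, where 24.7% of all tested probe sets were called higher and 40.8% lower by limma at an adjusted p under 0.05. At an unadjusted p under 0.05, 0 tested members were lower. The filter kept Obp28a, Obp56d and Obp83cd only through their mutant arrays, so these had to differ: of the 408 tested genes under 4 on all wild-type arrays, 99.8% were called higher. The other 5 tested members were detected in wild type, and 3 of them (Obp44a, Obp83g and Obp99c) were called higher, beside 19.0% of tested genes detected in wild type. Over all 47 members, floor genes included, 9 (19.1%) were higher on every mutant array than on every wild-type array, beside 18.0% of all genes, and 0 were lower, beside 24.8%. The share of members that were higher without overlap was thus near that of the array as a whole. Both shares include genes at the floor, which cannot separate, and the family holds more of them. On every array 68.1% of members read 2.2, beside 28.7% of all genes. The 9 members also include Obp56b, whose signal came mainly from 1 array. The median difference between genotypes was 0 over the 47 members and 0 over all genes. With 68.1% of members at the floor on every array, the family median had to be 0 whatever the other members did. The 2 medians therefore cannot show whether the family moved as the array did.

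**Figure D3:**
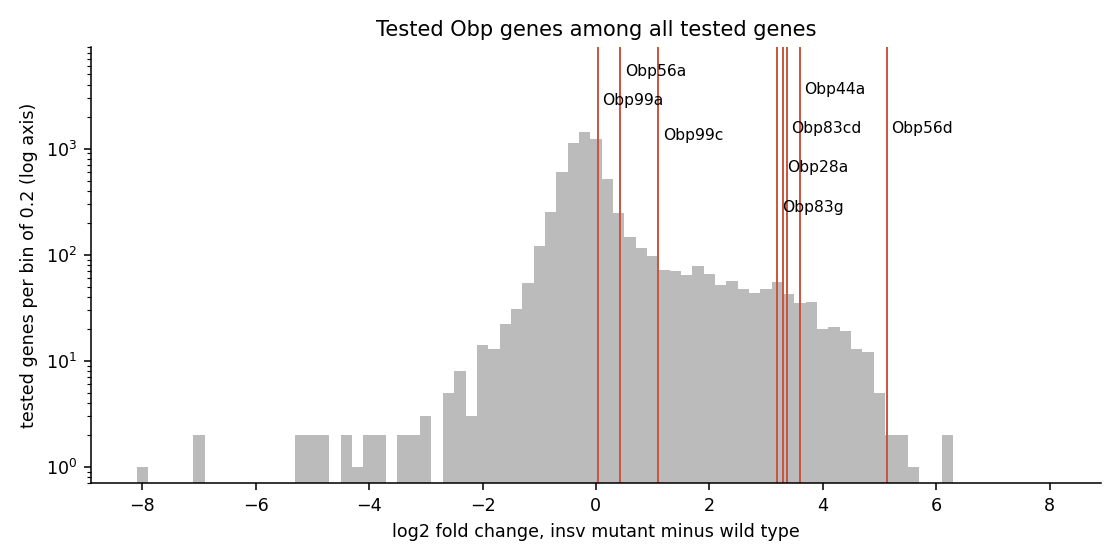
Log2 fold change (insv mutant minus wild type) of the 6932 tested genes in bins of 0.2 (grey, log axis), with the 8 tested Obp genes as red lines. Obp99a and Obp56a lie in the main peak, around the median of -0.13, while Obp83g, Obp28a, Obp83cd, Obp44a and Obp56d lie in the right tail from 3.20 to 5.13.

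Rescaling the arrays moved the sizes but not the direction of the 6 called rises. For Obp28a, Obp56d and Obp83cd the direction was fixed in advance, because they passed the filter only through their mutant arrays. Obp44a, Obp83g and Obp99c, which were detected in wild type, also stayed higher. After quantile normalization the log2 fold changes were 4.90 for Obp56d, 3.54 for Obp44a, 3.00 for Obp83cd, 2.92 for Obp28a, 2.85 for Obp83g and 1.13 for Obp99c. On the spike-in scale they ranged from 2.49 for Obp99c to 6.52 for Obp56d. That scale adds the same amount to every gene, so it leaves the order of the members as it was.

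**Figure D4:**
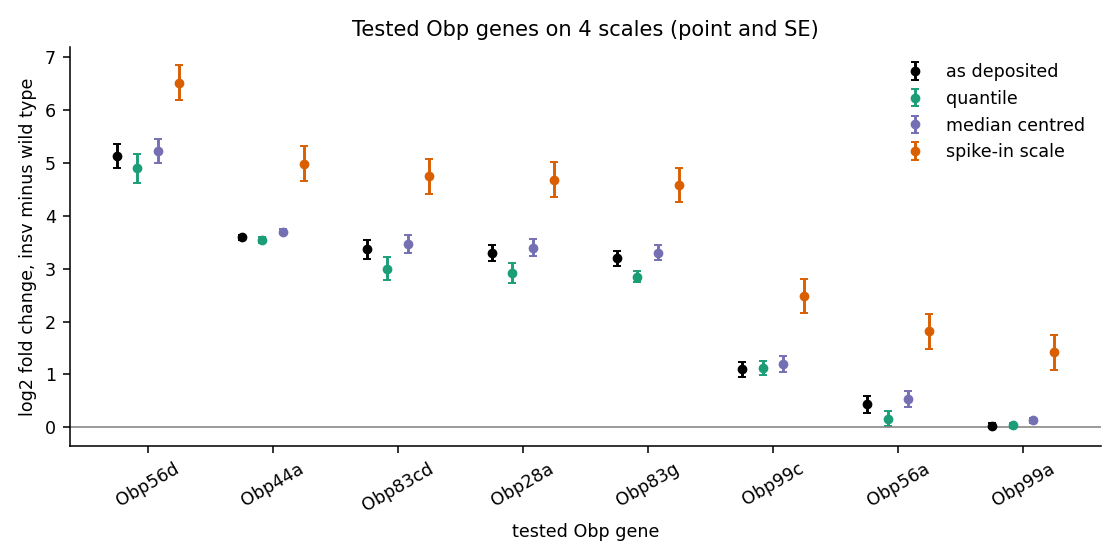
Log2 fold change with SE of the 8 tested Obp genes on 4 scales: as deposited (black), quantile normalized (green), centred on the array median (purple) and set by the Bacillus spike-ins (orange). The values of Obp56d run from 4.90 to 6.52, and those of Obp99a from 0.03 as deposited to 1.42 on the spike-in scale.

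Members with and without signal lay next to each other on the chromosomes. By the gene order of the Release 6 assembly, 9 genes from Obp56a to Obp56i on arm 2R follow each other with at most 2 other protein-coding genes between neighbours. Obp56a was detected in both genotypes, Obp56d was detected in the mutant and Obp56h reached the detection level there. The genes directly beside Obp56d, which are Obp56c and Obp56e, read 2.2 on all arrays. In the group Obp83cd, Obp83ef and Obp83g the outer genes rose and the middle one stayed at the floor. In the group Obp99c, Obp99d and Obp99b only Obp99c was detected. None of the 4 neighbouring genes from Obp19a to Obp19d on X, the 3 measured Obp50 genes, the 3 genes from Obp57a to Obp57c or the group of Obp59a with Obp58b, Obp58c and Obp58d was above 2.3 on any array. By arm, members that reached 4 numbered 1 of 2 on 2L, 4 of 26 on 2R, 0 of 2 on 3L, 4 of 11 on 3R and 0 of 6 on X.

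**Figure D5:**
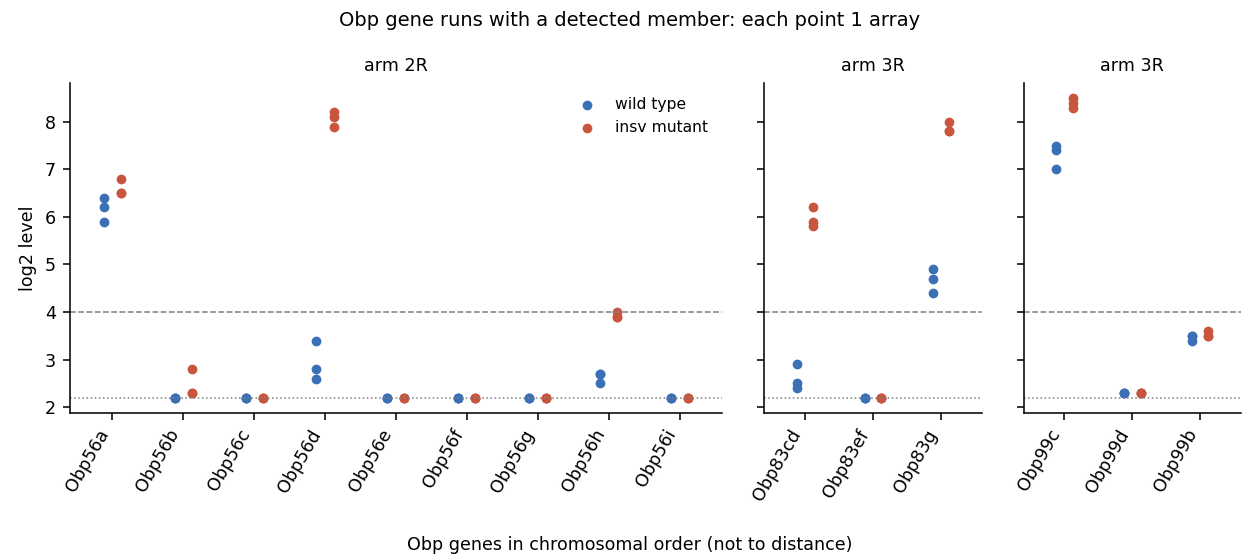
Log2 level on each array (points; wild type blue, insv mutant red) of Obp genes in chromosomal order, for the 3 groups of at least 3 neighbouring Obp genes with a member that reached 4; spacing is not to distance, the dashed line is 4 and the dotted line 2.2. Single genes stand out beside neighbours at the floor, as Obp56d does beside Obp56c and Obp56e.

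Receptor genes of the chemical senses were nearly all under the detection level in both genotypes. Of the 56 measured odorant receptor (Or) genes and the 56 gustatory receptor (Gr) genes, 0 were detected in either genotype, and 52 and 51 of them read 2.2 on every array. Of 53 ionotropic receptor (Ir) genes 1 was detected, Ir68a, a receptor of the humidity-sensing system. It read 5.2 on each wild-type array and 4.7, 4.8 and 4.7 in the mutant (log2 fold change -0.47 ± 0.04 SE, limma adjusted p = 0.000248). On the spike-in scale it was called higher, as were 7714 of all 8334 tested probe sets. None of the 6 coreceptor and membrane protein genes Orco, Ir8a, Ir25a, Ir76b, Snmp1 and Snmp2 was detected.

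The chemosensory protein (CSP) genes, a separate family of small secreted proteins with conserved cysteines, included a member detected in both genotypes. Of 4 measured, 3 were called higher, beside 24.7% of all tested probe sets, and a10, known from the adult antenna, was at the floor. Phk-3 was detected in wild type and read 6.3, 6.4 and 6.5 in wild type and 9.4, 9.4 and 9.3 in the mutant (log2 fold change 2.97 ± 0.06 SE; limma adjusted p = 2.65e-06). EbpIII, first known from the male ejaculatory bulb, read 4.4, 4.1 and 3.9 in wild type and 6.9, 6.9 and 6.8 in the mutant. CG30172 read 4.1, 4.1 and 3.9 in wild type and 6, 6 and 6.2 in the mutant. Both genes needed their mutant arrays to pass the filter on low values.

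Markers of tissues in which odorant-binding proteins can be made were read beside the family, and their part in its differences was not tested. The tested genes of the late embryonic cuticle list moved with the rises. All 15 were called higher in the mutant, beside 24.7% of all tested probe sets. Of these, Cpr56F, Ddc and TwdlE passed the filter only through their mutant arrays and had to differ. The 12 detected in wild type were all called higher too, with a median log2 fold change of 2.05 beside -0.13 over all tested genes. TwdlN and TwdlM, of the Tweedle cuticle protein family, rose by 4.87 ± 0.05 and 3.90 ± 0.05 (SE), and Osi6, of the Osiris family, by 2.73 ± 0.05 (limma adjusted p from 4.56e-07 to 1.47e-06). Cpr56F, another cuticle protein gene, read 2.3, 2.4 and 2.3 in wild type, near the floor, and 6 on each mutant array. The filter left out ple and Osi7 of the 17 measured genes of this list. The level of ple was 2.2 on all arrays. Osi7 read 2.4, 2.5 and 2.5 in wild type and 3.1, 2.5 and 2.6 in the mutant, with overlap. The mean log2 level of all 17 was 5.55 to 5.59 on the wild-type arrays and 7.68 to 7.69 on the mutant arrays.

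Glial genes, listed because of Obp44a, showed no common direction. Of 10 tested, 3 were higher and 2 lower, beside 24.7% and 40.8% of all tested probe sets, with a median of 0.05. All 10 were called higher on the spike-in scale, as were 7714 of all 8334 tested probe sets. The astrocyte gene alrm read 3.7, 4 and 3.7 in wild type, with a mean under the detection level, and 7, 7 and 6.9 in the mutant, so it passed the filter only through its mutant arrays. The other genes called differed by 0.50 or less. Higher were moody, of the blood-brain barrier (0.40), and, narrowly, Gs2 (0.20, limma adjusted p = 0.0496). Lower were gcm, the switch gene of glial fate (-0.23), and htl, a growth factor receptor also used in mesoderm (-0.50). The pan-glial gene repo did not pass, at 8.97 ± 0.06 in wild-type embryos and 9.13 ± 0.12 in mutants (SD, n = 3 each). The mean log2 level of the 12 measured glial genes was 8.40 to 8.43 in wild type and 8.63 to 8.68 in the mutant. Without alrm the other 11 averaged 8.81 to 8.85 in wild type and 8.78 to 8.84 in the mutant, so the ranges overlapped.

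The direction of the sense organ genes depended on the scale. All 5 tested were called higher on the spike-in scale, as were 7714 of all 8334 tested probe sets. Of these 5 genes of the list for support cells of sense organs, 0 were higher and 4 lower as deposited, beside 24.7% and 40.8% of all tested probe sets, with a median of -0.37: B-H2 by -0.50, Poxn by -0.47, ss by -0.37 and pros by -0.27. The largest difference in the list was that of sv, a regulator of sense organ support cells, which was under the detection level: it read 3.8, 3.2 and 3.7 in wild type and 2.6, 2.5 and 2.6 in the mutant and was not tested. The defining gene nompA, whose product links hair and dendrite, was not detected in either genotype. Whether the signal of the 5 tested genes came from support cells was not tested. The mean log2 level of the 8 measured genes was 5.84 to 5.99 in wild type and 5.54 to 5.64 in the mutant, sv included. The fat body list had 3 of 4 tested genes higher, beside 24.7% of all tested probe sets, namely Apoltp (0.83), Lpin (0.53) and apolpp (0.37), with a median of 0.45. The other tested gene, srp, did not pass (0.10), and Fbp1, Fbp2 and Lsp2 read 2.2 on all arrays. The count called higher was 2 after quantile normalization and 4 on the spike-in scale, beside the same 7714 of 8334 on that scale. The 7 measured fat body genes averaged 6.39 to 6.53 in wild type and 6.69 to 6.73 in the mutant. Of the 11 patterning genes 1 was higher and 7 lower, beside the same 24.7% and 40.8%. On the spike-in scale 10 were higher and 0 lower, beside 7714 and 51 of all 8334 tested probe sets. Among the 7 lower as deposited were slou (-0.77), Dll (-0.60), gsb (-0.47) and Dfd (-0.30), and the median was -0.37.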

How the data were processed

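The deposited values are log2 expression levels that the authors made with GCRMA, per the submitters' processing notes, rounded to 1 decimal and not centred; version and options are not given in the sources used here. That they are log2 follows from their range. The table held 18952 probe sets, of which 183 controls were read separately. Of the other 18769, 13647 had 1 symbol in the platform annotation, 402 several and 4720 none, and symbols were updated for 13544 through the gene identifier in RefSeq (assembly Release 6), used only for names and gene order.

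Probe sets with 4 or more on at least 3 of the 6 arrays (8334 probe sets, 6932 genes) entered a linear model in limma 3.58.1 (R 4.3.3) with eBayes and no block, with Benjamini-Hochberg adjustment over all of them and calls at an adjusted p under 0.05. The method was tested on simulated arrays with normal noise, no floor and far fewer changed probe sets than were called here. Those settings do not stand in for the present arrays. Rounding left 24.1% of tested probe sets identical on all arrays of a genotype, which makes calls of small differences less reliable. The number of arrays limits the precision. No arrays were identical: the most alike within a genotype shared the same value in 43.1% of tested probe sets.

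Members and lists were chosen with earlier results of these data known. Named were insv, each Obp gene with an array at 4 or more, the other Obp genes by name within counts, and, for differences, up to 4 genes of each other list by the smallest adjusted p. The coreceptor genes, a10, en, Scr, repo, Gs2, nompA, sv, Ddc, TwdlE, ple, Osi7, Fbp1, Fbp2 and Lsp2 were named outside this rule, after their values were seen. Lists covered chemosensory genes and markers of glia, fat body, cuticle, sense organ support cells, patterning, photoreceptors, accessory gland, and eggshell and yolk. A takeout list and 5 listed genes that are not markers of their tissue were left out before their values were read. Alternatives were other filters, scalings, priors, array weights, a block for the replicate number, other probe set rules, a required 2-fold change, each array left out and noise within the rounding interval.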

Additional observations from a re-analysis of the deposited data

Results flagged for a closer look

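A signal lay in a probe set left out of the family because the annotation gives it 2 symbols, Obp57d and Cpr57A. It read 4.4, 4.3 and 4.5 in wild type and 5.9, 5.5 and 5.7 in the mutant, a difference of 1.3 on the log2 scale (limma adjusted p = 0.000416). All mutant arrays were above all wild-type arrays. Another probe set with the same 2 symbols read 2.2 on all 6 arrays, and which of the genes gave the signal was not tested. Both probe sets shared by Obp50b and Obp50c also read 2.2 throughout.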

How the results depend on the processing

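The count of Obp genes called higher was 6. It ran from 4 (filter at 6, which removed Obp28a and Obp83cd) to 8 (spike-in scale) over the alternatives. Leaving out 1 array gave 6 to 7, and 0 were called lower under any alternative run. Obp28a, Obp56d and Obp83cd passed the main filter only through their mutant arrays, as Obp56d did the filter at 6. With these filters their calls were fixed in advance. Obp56a was also called after median centring, with a robust prior, with array weights, without wild-type replicate 2 and with rounding noise added (an alternative chosen after seeing the data). Detected members in wild type numbered 3 in place of 5 at a detection level of 6. Over the other gene lists, 25 genes were called higher, 15 of them from the cuticle list, and 14 lower. These counts were 48 and 0 on the spike-in scale. That scale carries the spread of the spike-ins into every gene, so its p-values are not printed. All tested probe sets called higher or lower numbered 2055 and 3404, against 7714 and 51 on the spike-in scale and 858 and 129 with a required 2-fold change. Deviations of same-numbered arrays correlated at 0.17, -0.01 and 0.27, so the numbers were not taken as pairs; with the replicate number as a block 6 Obp genes were called higher, as without it. Rounding and the floor at 2.2 limit what can be said of genes under 4.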
